A study of Homo sapiens with 33 samples.

Results

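The transcripts of 10 genes of the MYC, MAX and MXD network were followed across 33 RNA sequencing libraries of human cell lines of acute lymphoblastic leukaemia (ALL). The genes are MYC, MYCN, MAX, MXD1, MXD3, MXD4, MXI1, MNT, MGA and MLX, chosen by name, and each matched 1 of the 62446 gene rows of the count tables. Nalm6 is a leukaemia line of B-cell precursors, TLE1 KO was made from it by knocking out the co-repressor TLE1, and CEM is a leukaemia line of T cells. Nalm6 and TLE1 KO grew in RPMI medium with charcoal-stripped serum, which holds little steroid; the medium of CEM is not given in the sources used here. Treatments lasted 24 h. The agents were CHIR-99021 (CHIR below), an inhibitor of the kinase GSK3 that is used as a Wnt agonist, and the glucocorticoids prednisolone and dexamethasone.

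Parental Nalm6 cells were untreated or received 0.5 µM CHIR, and a second Nalm6 set held untreated cells and cells given 100 nM dexamethasone. Other Nalm6 cells received 5 µM prednisolone, and the labels do not say to which of these sets they belong. For TLE1 KO there were untreated cells, cells with 5 µM prednisolone and cells with dexamethasone at 100 nM. CEM cells were untreated, or received 2 µM CHIR or 10 µM prednisolone. Each of the 11 groups had 3 libraries. The series text describes 3 independent experiments for CHIR in Nalm6 and prednisolone in TLE1 KO; for the other groups nothing says that the libraries came from separate cultures, so their p-values measure the spread between these libraries, which may be technical. Whether TLE1 KO is a single clone is not said. The labels' treatment protocol gives prednisolone to the parental cells and CHIR to the knockout, against the titles and the series text, and the titles were followed.

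MYC and its relative MYCN bind DNA only as a pair with MAX, at sequences called E-boxes, and raise the transcription of genes for ribosome production, nucleotide synthesis and cell growth. MXD1, MXD3, MXD4, MXI1 and MNT also pair with MAX and occupy the same sequences, but recruit SIN3 histone deacetylase complexes and repress. MGA pairs with MAX inside a repressive Polycomb-type complex, and MLX is a MAX-like partner of the glucose sensors MLXIP and MLXIPL and of some MXD proteins. In many blood cells, a change from MYC to MXD proteins accompanies the exit from division, and loss of MYC is a known part of the glucocorticoid response of lymphoid leukaemia cells.

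The core E-box that these pairs bind is CACGTG. Among the RefSeq promoters (GRCh38.p14), 14 windows of 250 bases before a start site matched 9 of the 10 genes, all but MYC. CACGTG, which reads the same on both strands, lay in 3 of these windows. Of all 35116 such windows, 6.34% hold it. The 3 are shown because their genes responded differently to glucocorticoids: MXD4 rose, MNT fell and MLX moved little. Each is printed 5′ to 3′ on the gene's strand, with CACGTG in capitals.
MXD4: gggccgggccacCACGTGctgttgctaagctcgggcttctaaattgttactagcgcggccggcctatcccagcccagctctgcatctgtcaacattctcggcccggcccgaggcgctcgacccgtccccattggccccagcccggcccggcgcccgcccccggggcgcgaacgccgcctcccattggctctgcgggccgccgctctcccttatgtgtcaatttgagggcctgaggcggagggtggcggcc
MNT: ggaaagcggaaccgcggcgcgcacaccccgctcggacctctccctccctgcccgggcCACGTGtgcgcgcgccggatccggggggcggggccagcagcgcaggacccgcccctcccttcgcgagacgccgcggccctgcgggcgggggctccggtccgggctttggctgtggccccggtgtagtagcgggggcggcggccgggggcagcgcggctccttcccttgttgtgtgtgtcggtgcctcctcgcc
MLX: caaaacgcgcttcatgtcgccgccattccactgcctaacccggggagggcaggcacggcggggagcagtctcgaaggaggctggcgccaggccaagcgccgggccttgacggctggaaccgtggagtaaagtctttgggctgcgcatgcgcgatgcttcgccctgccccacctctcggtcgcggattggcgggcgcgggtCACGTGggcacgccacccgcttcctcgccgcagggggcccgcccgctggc
The MXD4 window is chr4:2262110-2262359 on the minus strand, and its motif starts 238 bases before the transcription start. The MNT window is chr17:2401061-2401310 on the minus strand with the motif at 193 bases, and the MLX window is chr17:42566850-42567099 on the plus strand with the motif at 50 bases. The AGAACA arm of the glucocorticoid receptor's palindrome, searched on both strands, occurred in 1 of the 14 windows, an MXI1 window, and in 12.4% of all windows. The whole palindrome, AGAACA and TGTTCT with 3 bases of any kind between them, was found in 0 of the 14 and in 0.00285% of all. These are matches of letters in short windows, and binding was not measured here.

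In units of 1000000, each library held between 25.3 and 61.9 reads assigned to genes. TLE1 was at 24.0 to 25.4 counts per 1000000 (CPM) in the untreated TLE1 KO libraries. It was at 30.2 to 34.0 CPM in the untreated Nalm6 libraries of the first set, but at 25.98 to 27.9 CPM in those of the second. Its transcript was thus still made in the edited line, and its level in untreated cells checks the label weakly. Treated cells differed more. With prednisolone TLE1 was at 54.45 to 68.96 CPM in TLE1 KO and at 110 to 116 CPM in Nalm6. With dexamethasone it was at 55.3 to 59.0 CPM and at 129 to 134 CPM. Markers of B-cell precursors summed to 2346 to 2982 CPM in all Nalm6 and TLE1 KO libraries, with 8 of 8 at 1 CPM or more. In CEM they summed to 139.8 to 218.5 CPM, with 5 of 8. T-cell markers summed to 1861 to 2038 CPM in CEM, with 8 of 8, and to 24.2 to 49.4 CPM in Nalm6 and TLE1 KO, with 2 of 8. Untreated Nalm6 libraries of the second set differed from those of the first in 50.2% of 17478 genes tested. The labels pair the second set with dexamethasone in Nalm6 and do not say which untreated Nalm6 group belongs to prednisolone; the first was used. Results that change with the second untreated set, a comparison chosen after seeing the data, are given beside them.

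Per kilobase of exon, MYC was the most abundant network transcript in every group. Its group means ran from 52.6 CPM in prednisolone-treated CEM to 286 CPM in the untreated Nalm6 cells of the second set. On the same per-kilobase scale MAX ran from 15.01 to 23.5, MLX from 13.8 to 19.3, MGA from 7.54 to 13.4, MXD3 from 5.71 to 20.6, MXD4 from 3.04 to 44.9, MXI1 from 2.76 to 10.9, MNT from 2.45 to 4.30 and MXD1 from 0.986 to 3.06 CPM. MYCN, at 0 in some groups, is described separately. Among the other genes MXD4 had the widest range of group means, 14.8-fold, against 5.44-fold for MYC, and the common partners MAX and MLX had the narrowest, 1.56-fold and 1.40-fold. The highest MXD4 mean belonged to dexamethasone-treated Nalm6 and the lowest to CHIR-treated CEM.

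**Figure D1:**
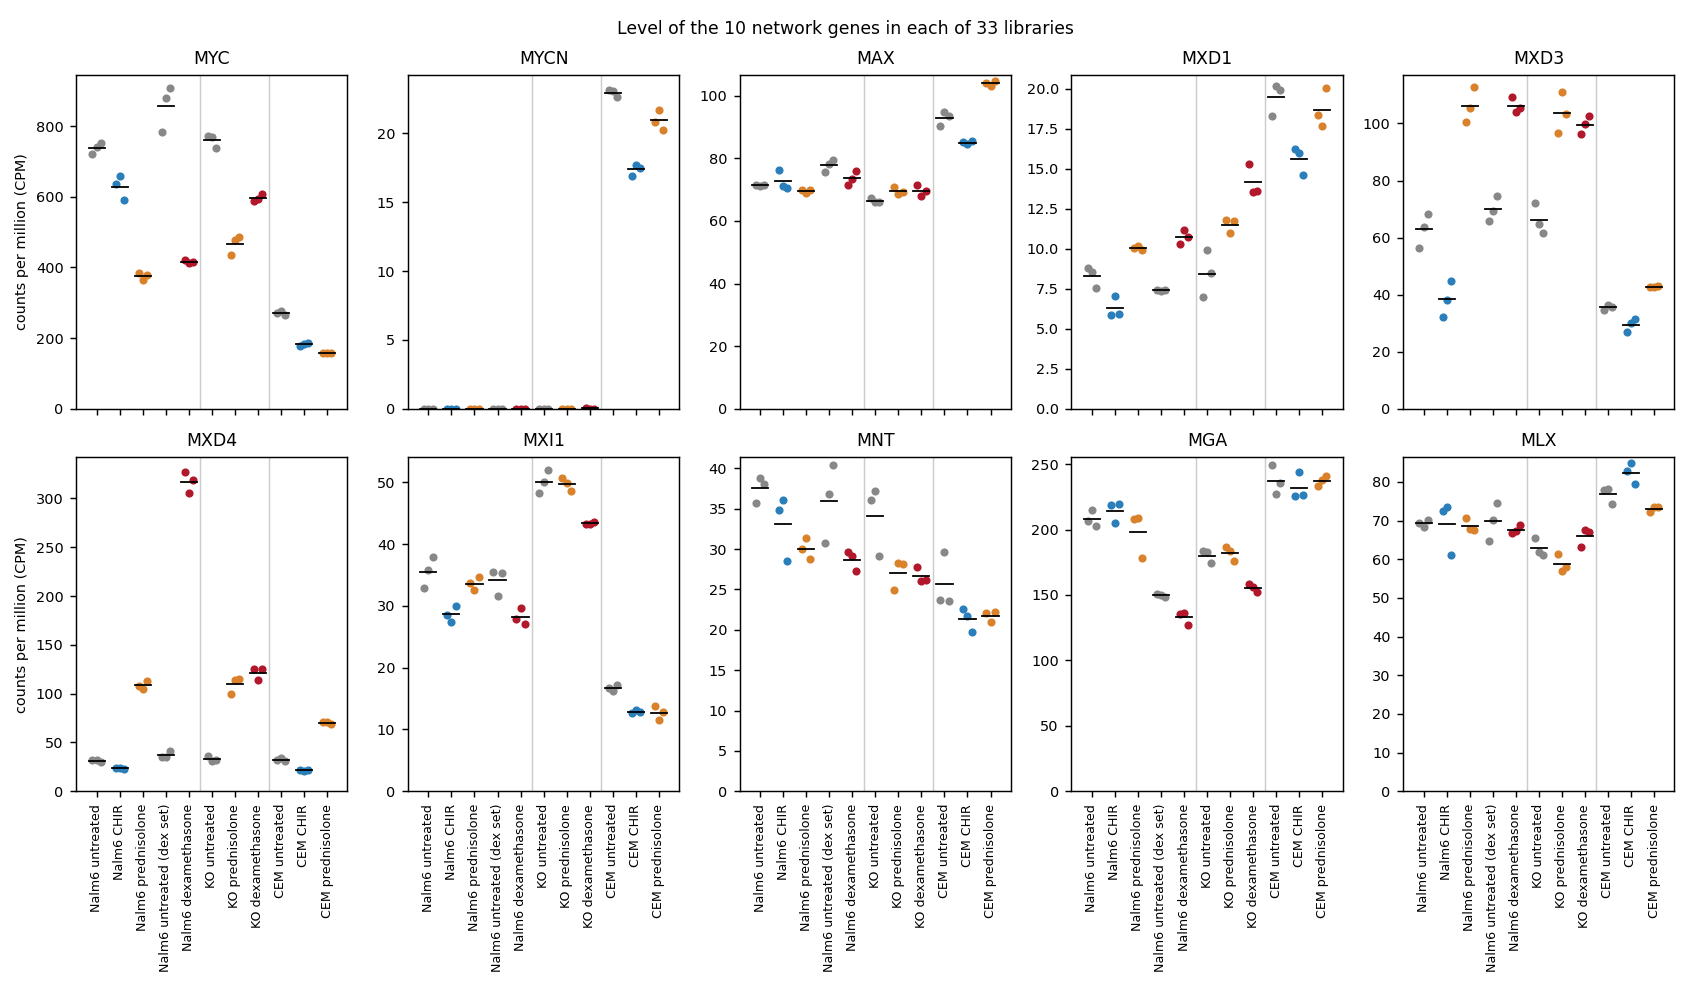
Level of each of the 10 genes in counts per 1000000 (linear vertical axes that start at 0 and differ between panels) in the 3 libraries of each of the 11 groups; points are libraries, short lines are group means, grey is untreated, blue CHIR, orange prednisolone and red dexamethasone. MYC is lower and MXD4 higher in every glucocorticoid group than in the untreated group it was compared with, and MYCN is seen in CEM alone, with a single read elsewhere.

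MYC was the main MYC gene in all 3 lines, and CEM also carried MYCN. In untreated Nalm6, MYC stood at 722, 741 and 752 CPM, and in the second untreated set at 784, 880 and 909 CPM. Untreated TLE1 KO libraries had 773, 771 and 738 CPM, which overlapped the first Nalm6 set. Untreated CEM libraries had 270, 278 and 265 CPM of MYC, below every Nalm6 and TLE1 KO library of any treatment. MYCN, the neural relative of MYC, was at 23.1, 23.1 and 22.6 CPM in untreated CEM. Of the 24 Nalm6 and TLE1 KO libraries, 23 held 0 MYCN reads and 1 held 1 read, so against a floor of 3 counts per library MYCN was at least 193-fold higher in untreated CEM. On the per-kilobase scale MYCN reached at most 8.82 CPM in CEM, against 90.3 CPM of MYC in the same untreated cells.

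Other network genes also separated CEM from Nalm6. Taking the second Nalm6 set as reference, 9 of 10 network genes differed by edgeR's quasi-likelihood test at an adjusted p under 0.05, where 77.5% of all genes did; 4 were higher, beside 40.2% of all genes, and 5 lower, beside 37.3%. MYC was 3.25-fold lower in CEM (log2 difference -1.70 ± 0.05 SE, adjusted p = 3.25e-12 by edgeR). MXD1 was 2.56-fold higher, at 18.3, 20.2 and 19.9 CPM in CEM against 7.44, 7.32 and 7.40 CPM in Nalm6. MXD3 was 2.02-fold lower, MXI1 2.10-fold lower, MNT 1.43-fold lower and MGA 1.54-fold higher. MGA stood at 249, 227 and 235 CPM in CEM, against 151, 150 and 148 CPM in the second Nalm6 set. In the first Nalm6 set it was closer to CEM, at 206, 215 and 203 CPM. MLX was not called against the second set (log2 difference 0.10, adjusted p = 0.0877, edgeR) but was against the first (0.20, adjusted p = 3.76e-05). MXD4 was 1.18-fold lower against the second Nalm6 set, but the difference turned to 0.10 on the log2 scale (adjusted p = 0.0667, edgeR) with the first Nalm6 set as reference, so no direction holds for it. Cell lineage and cell line cannot be told apart with 1 line of each lineage.

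Between untreated TLE1 KO and Nalm6, 2 of 9 network genes tested differed, a share near the background of 27.1% of all genes; 1 was higher, beside 15.3%, and 1 lower, beside 11.8%. MXI1, a SIN3-recruiting repressor, was at 48.3, 50.03 and 52.0 CPM in TLE1 KO and at 32.9, 35.7 and 37.8 CPM in Nalm6, with no overlap (log2 difference 0.52 ± 0.06, adjusted p = 0.000347, edgeR). MGA was lower at 183, 183 and 174 CPM against 206, 215 and 203 CPM (log2 difference -0.18 ± 0.05, adjusted p = 0.0177), a call that was lost without any single Nalm6 control library, with adjusted p from 0.0531 to 0.0991 for the log2 differences of -0.19, -0.17 and -0.20 without replicates 1, 2 and 3. The untreated Nalm6 libraries of the second set held 151, 150 and 148 CPM of MGA, below every untreated TLE1 KO library. No direction therefore holds for MGA here. For MYC the log2 difference was 0.07 ± 0.05 (adjusted p = 0.308, edgeR), and for MXD4 0.11 ± 0.06 (adjusted p = 0.234). The second Nalm6 set, at 784, 880 and 909 CPM of MYC, lay above every untreated TLE1 KO library. TLE1 KO was not tested against that set.

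CHIR lowered MYC and all 4 MXD-family transcripts, MXD1, MXD3, MXD4 and MXI1, in both lines. In Nalm6 5 of 9 network genes passed, all lower, against 7.88% of all genes called and 4.72% called lower. In CEM 6 of 10 passed, all lower, against 10.8% called and 5.43% called lower. The median log2 fold change of the tested network genes was -0.23 in Nalm6 and -0.28 in CEM, beside -0.01 and -0.00 over all genes tested. In bulk RNA, fewer cells that carry a transcript and less of it in each cell cannot be told apart. The dose was 0.5 µM in Nalm6 and 2 µM in CEM, so the lines are given side by side and their responses were not compared.

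Under CHIR, MYC in Nalm6 was at 636, 659 and 592 CPM against 722 to 752 CPM in the controls (log2 fold change -0.23 ± 0.05 SE, adjusted p = 0.0245, edgeR). The groups did not overlap, but the call was lost when any of the 3 controls or the first CHIR library was left out, with log2 fold changes of -0.24, -0.23, -0.21 and -0.23 and adjusted p from 0.061 to 0.137. In CEM, MYC fell to 179, 183 and 185 CPM from 265 to 278 CPM (log2 fold change -0.55 ± 0.04, adjusted p = 4.91e-06, edgeR). MYCN in CEM fell with it, to 16.9, 17.7 and 17.5 CPM from 22.6 to 23.1 CPM (log2 fold change -0.38 ± 0.05, adjusted p = 0.000477). Every CHIR library of CEM was thus below every control for both MYC genes.

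MXD3, an MXD protein that is expressed in dividing cells, had the largest CHIR change of the network in Nalm6. It was at 32.2, 38.2 and 44.7 CPM against 56.5, 63.9 and 68.1 CPM (log2 fold change -0.70 ± 0.10, adjusted p = 0.00311, edgeR). In CEM it was at 27.0, 29.99 and 31.4 CPM against 34.6, 36.3 and 35.6 CPM (log2 fold change -0.25 ± 0.06, adjusted p = 0.0126), a call lost without the second control library (-0.23, adjusted p = 0.0515). The groups did not overlap in either line.

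MXD4 fell under CHIR in Nalm6 to 23.6, 24.2 and 23.3 CPM from 31.6, 32.5 and 30.2 CPM (log2 fold change -0.41 ± 0.05, adjusted p = 0.00104, edgeR). In CEM it fell to 21.6, 21.0 and 21.7 CPM from 31.7, 34.4 and 31.2 CPM (log2 fold change -0.58 ± 0.05, adjusted p = 4.89e-05). The replicates lay within about 1 CPM of each other in both treated groups. MXI1 fell to 28.5, 27.5 and 30.05 CPM from 32.9 to 37.8 CPM in Nalm6 (log2 fold change -0.31 ± 0.06, adjusted p = 0.012), a call lost without the second or the third control library (-0.31 and -0.26, adjusted p = 0.0681 and 0.0821). In CEM it fell to 12.6, 13.1 and 12.9 CPM from 16.3 to 17.3 CPM (log2 fold change -0.36 ± 0.06, adjusted p = 0.00162).

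MXD1, the founding member of the MXD family, was the scarcest repressor per kilobase in Nalm6 and TLE1 KO. It was at 5.83, 7.03 and 5.92 CPM under CHIR in Nalm6 against 7.54 to 8.82 CPM (log2 fold change -0.40 ± 0.10, adjusted p = 0.0305, edgeR), and 4 of the 6 fits with a library left out no longer called it (adjusted p from 0.0509 to 0.129). In CEM it fell to 16.2, 16.0 and 14.6 CPM from 18.3 to 20.2 CPM (log2 fold change -0.30 ± 0.06, adjusted p = 0.0102). The genes that did not pass under CHIR were the same 4 in both lines, MAX, MNT, MGA and MLX, with log2 fold changes from -0.18 to 0.04 in Nalm6 and from -0.25 to 0.12 in CEM.

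Glucocorticoids lowered MYC and raised MXD4 and MXD3 in all 3 lines. For MYC and MXD4 no treated group overlapped its control group. Prednisolone changed 5 of 9 tested network genes in Nalm6, where 54.8% of all genes were called, 5 of 9 in TLE1 KO, against 41.7%, and 8 of 10 in CEM, against 45.1%. Dexamethasone changed 8 of 9 in Nalm6, against 60.5%. By direction, prednisolone raised 3 and lowered 2 in Nalm6 (28.7% and 26.1% of all genes), 3 and 2 in TLE1 KO (19.8% and 21.9%) and 3 and 5 in CEM (22.3% and 22.8%), and dexamethasone raised 3 and lowered 5 in Nalm6 (30.2% each). The counts lie near these backgrounds, or above them by a few genes, so the sizes of the MYC and MXD4 changes carry the description below. CHIR and prednisolone share their untreated libraries within Nalm6 and within CEM. Doses of prednisolone also differed, 5 µM in Nalm6 and TLE1 KO and 10 µM in CEM.

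**Figure D2:**
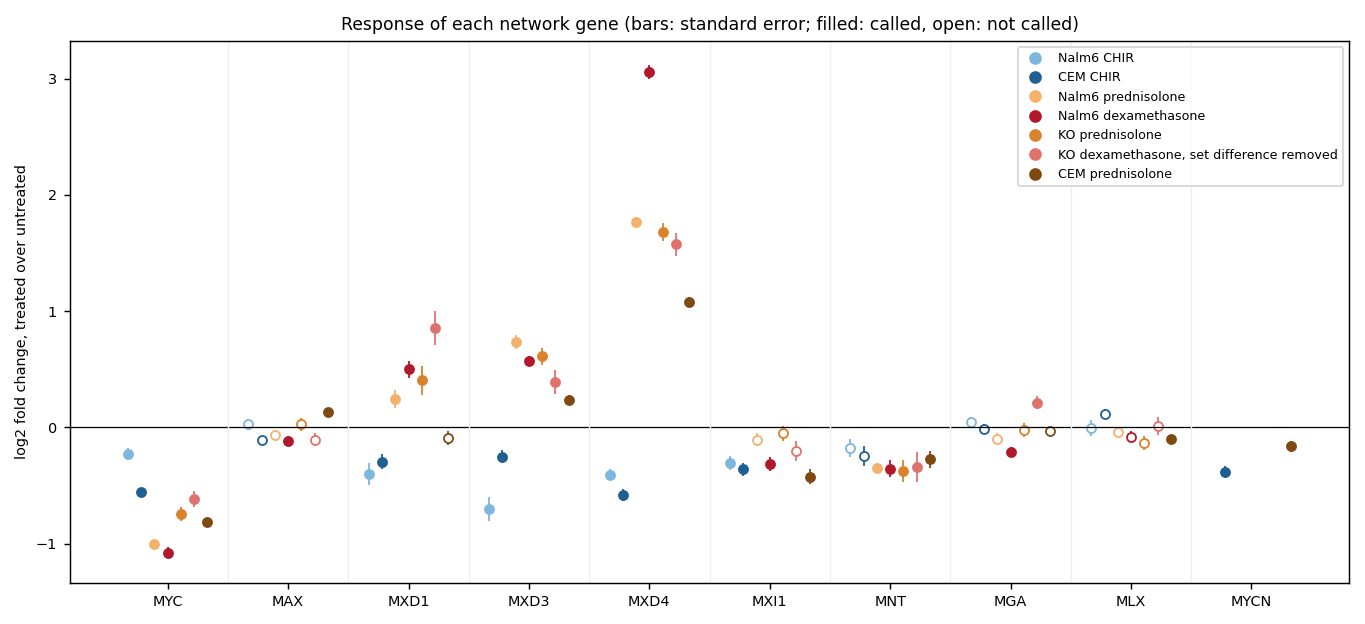
Log2 fold change of each network gene (treated over untreated, vertical axis) in the 7 treatment comparisons, with SE bars; filled points passed an adjusted p under 0.05 and open points did not, and MYCN is shown only for CEM. MYC lies below 0 in all 7, while MXD4 lies below 0 under CHIR and between 1.08 and 3.05 under glucocorticoids. Dexamethasone in TLE1 KO is shown after subtracting the difference between the untreated Nalm6 sets.

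MYC in prednisolone-treated Nalm6 was at 383, 364 and 378 CPM, 2.01-fold below the controls (log2 fold change -1.005 ± 0.039 SE, adjusted p = 7.75e-13, edgeR). Dexamethasone took it to 422, 411 and 415 CPM from 784 to 909 CPM (log2 fold change -1.08 ± 0.05, adjusted p = 1.09e-10). No glucocorticoid library of Nalm6 reached the level of any untreated one. In TLE1 KO, prednisolone gave 434, 478 and 487 CPM against 738 to 773 CPM (log2 fold change -0.75 ± 0.06, adjusted p = 8.35e-06). In CEM it gave 158, 158 and 157 CPM against 265 to 278 CPM (log2 fold change -0.81 ± 0.03, adjusted p = 5.32e-13). MYCN in CEM fell less, to 20.8, 21.7 and 20.3 CPM (log2 fold change -0.16 ± 0.05, adjusted p = 0.0114), a call lost without the third prednisolone library (-0.13, adjusted p = 0.0562).

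MXD4 showed the largest change of the network under every glucocorticoid. Prednisolone raised it in Nalm6 to 108, 105 and 113 CPM from 31.6, 32.5 and 30.2 CPM, 3.39-fold (log2 fold change 1.76 ± 0.05, adjusted p = 3.77e-15, edgeR). Dexamethasone raised it to 327, 305 and 319 CPM from 34.7, 35.5 and 41.7 CPM, 8.30-fold (log2 fold change 3.05 ± 0.06, adjusted p = 2.48e-14). The agents differ in dose and were set against different untreated groups, so no test compared them. Prednisolone raised MXD4 in TLE1 KO to 99.2, 114 and 115 CPM from 35.9, 31.4 and 32.5 CPM (log2 fold change 1.68 ± 0.07, adjusted p = 1.01e-07). In CEM, where untreated MXD4 was about as high, it reached 70.7, 70.5 and 69.0 CPM from 31.7, 34.4 and 31.2 CPM (log2 fold change 1.08 ± 0.04, adjusted p = 4.67e-13).

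MXD3 rose by less. In Nalm6 it reached 100.5, 105.5 and 112.9 CPM with prednisolone (log2 fold change 0.73 ± 0.06, adjusted p = 1.37e-08, edgeR). With dexamethasone it reached 109, 104 and 105 CPM from 65.8, 69.3 and 74.6 CPM (log2 fold change 0.57 ± 0.05, adjusted p = 7.16e-08). In TLE1 KO it reached 96.8, 111 and 103.5 CPM with prednisolone from 72.0, 64.6 and 61.5 CPM (log2 fold change 0.61 ± 0.07, adjusted p = 7.06e-05). The 4 glucocorticoid groups of Nalm6 and TLE1 KO had MXD3 means that neighboured and overlapped each other. In CEM the rise was smaller, to 42.6, 42.5 and 43.0 CPM from 34.6 to 36.3 CPM (log2 fold change 0.24 ± 0.04, adjusted p = 5.52e-05).

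MXD1 and MXI1 did not follow MXD3 and MXD4 throughout. MXD1 rose in Nalm6 with dexamethasone to 10.3, 11.1 and 10.7 CPM from 7.32 to 7.44 CPM (log2 fold change 0.50 ± 0.07, adjusted p = 3.08e-05, edgeR). With prednisolone it stood at 10.0, 10.2 and 9.90 CPM against 7.54 to 8.82 CPM (log2 fold change 0.24 ± 0.07, adjusted p = 0.00988), not called by DESeq2 (adjusted p = 0.0739) or without the third control (0.18, adjusted p = 0.0762). In TLE1 KO prednisolone gave 11.8, 10.98 and 11.7 CPM against 6.95, 9.91 and 8.44 CPM (log2 fold change 0.40 ± 0.13, adjusted p = 0.0276), lost without the first control or the first or the third prednisolone library (0.27, 0.37 and 0.39, adjusted p = 0.0888, 0.0896 and 0.0748). In CEM its log2 fold change was -0.09 ± 0.06 (adjusted p = 0.231), and the groups overlapped.

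Dexamethasone in TLE1 KO aside, which is described below, MXI1, which also recruits SIN3, fell in 2 comparisons in which MXD3 and MXD4 rose. It fell with dexamethasone in Nalm6 to 27.9, 29.6 and 27.0 CPM from 31.6 to 35.5 CPM (log2 fold change -0.32 ± 0.06, adjusted p = 0.000274, edgeR). In CEM prednisolone took it to 13.7, 11.5 and 12.8 CPM from 16.3 to 17.3 CPM (log2 fold change -0.42 ± 0.07, adjusted p = 3.77e-05). With prednisolone in Nalm6 the groups overlapped (log2 fold change -0.11 ± 0.05, adjusted p = 0.109); same-numbered libraries of these groups deviated together, and with the replicate number as a block the value was -0.11 (adjusted p = 0.0464). In TLE1 KO prednisolone left it at 50.7, 49.9 and 48.6 CPM against 48.3 to 52.0 CPM (log2 fold change -0.05 ± 0.06, adjusted p = 0.54).

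MNT, a broadly expressed MAX partner that opposes MYC, fell under each glucocorticoid. In Nalm6 prednisolone libraries held 30.1, 31.4 and 28.7 CPM against 35.8, 38.8 and 38.1 CPM (log2 fold change -0.35 ± 0.05, adjusted p = 5.59e-06, edgeR). With dexamethasone they held 29.6, 29.2 and 27.3 CPM against 30.7, 36.9 and 40.4 CPM (log2 fold change -0.36 ± 0.07, adjusted p = 0.000874). The log2 fold change was -0.38 ± 0.09 in TLE1 KO (adjusted p = 0.00864) and -0.27 ± 0.07 in CEM (adjusted p = 0.00532). MNT and MXD4, whose windows printed above both hold CACGTG, thus moved in opposite directions.

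The shared partners moved little. MAX rose in CEM with prednisolone to 104, 103 and 105 CPM from 90.3 to 94.7 CPM (log2 fold change 0.13 ± 0.03, adjusted p = 0.0022, edgeR). In Nalm6 its log2 fold change was -0.07 ± 0.04 with prednisolone (adjusted p = 0.157) and -0.11 ± 0.04 with dexamethasone (adjusted p = 0.0266), and the last call was lost without the first or the second dexamethasone library or the third control (-0.09, -0.11 and -0.11, adjusted p = 0.147, 0.0907 and 0.0513). MLX was called in CEM (log2 fold change -0.10 ± 0.03, adjusted p = 0.0141) and not with prednisolone in Nalm6 (-0.04 ± 0.04, adjusted p = 0.365). MGA fell with dexamethasone in Nalm6 to 136, 137 and 127 CPM from 148 to 151 CPM (log2 fold change -0.21 ± 0.04, adjusted p = 0.000407). With prednisolone in Nalm6 its value was -0.10 ± 0.05 (adjusted p = 0.0837), and -0.10 with the replicate block (adjusted p = 0.0185). With the second untreated Nalm6 set all 3 were called for prednisolone in Nalm6, MAX at -0.28 (adjusted p = 9.59e-05), MLX at -0.14 (adjusted p = 0.0379) and MGA with the opposite sign at 0.29 (adjusted p = 0.000263), so no direction holds for MGA.

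The response to prednisolone was compared between lines by a difference of fold changes. Between TLE1 KO and Nalm6, both given 5 µM, 0 of 9 network genes passed with edgeR, where 3.48% of all genes did (1.1% higher and 2.38% lower); 1 of the 9 had an unadjusted p under 0.05, and DESeq2 called 1. That gene was MYC, whose fall was smaller by 0.28 ± 0.08 on the log2 scale in TLE1 KO (adjusted p = 0.0514 by edgeR and 0.00428 by DESeq2). It passed with edgeR when the third control or the first prednisolone library of TLE1 KO was left out (0.26 and 0.32, adjusted p = 0.0335 and 0.0273). With the second untreated Nalm6 set 3 of 9 passed, MYC at 0.58 (adjusted p = 0.000235, edgeR), MAX at 0.32 (adjusted p = 0.00324) and MGA at -0.30 (adjusted p = 0.0136), so this comparison depends on the untreated group chosen. For MXD4 the difference was -0.06 ± 0.09 (adjusted p = 0.795). Between CEM at 10 µM and Nalm6 at 5 µM, 6 of 9 genes differed, against 26.9% of all genes; 2 were higher, beside 14.7%, and 4 lower, beside 12.2%, and MYCN could not be fitted. The rise of MXD4 was smaller in CEM by 0.67 ± 0.07 on the log2 scale (adjusted p = 2.12e-08, edgeR), and that of MXD3 by 0.48 ± 0.08 (adjusted p = 5.31e-05), while the fall of MYC was smaller by 0.21 ± 0.05 (adjusted p = 0.00416). With the second untreated Nalm6 set these 3 were called with the same sign, at -0.35 for MXD4, -0.25 for MXD3 and 0.50 for MYC.

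Dexamethasone in TLE1 KO has no untreated group labelled as its own. MYC was at 588, 594 and 609 CPM against 773, 771 and 738 CPM in the untreated TLE1 KO libraries. MXD4 was at 125, 114 and 125 CPM against 35.9, 31.4 and 32.5 CPM. Both genes showed no overlap. Subtracting the difference between the untreated Nalm6 sets removes a set difference only if these dexamethasone libraries belong with the second set. The labels do not say so. Reads that mapped to several places made up 6.97% to 7.55% of them, and 5.47% to 5.72% of the second untreated Nalm6 set. With the difference between the untreated Nalm6 sets subtracted, 6 of 9 network genes passed, against 40% of all genes, 4 of them higher (18.5%) and 2 lower (21.5%). In the plain contrast 7 of 9 did, against 52.3%, 3 higher (26%) and 4 lower (26.3%). MYC fell by 0.61 ± 0.07 on the log2 scale after the subtraction (adjusted p = 4.49e-06, edgeR) and by 0.33 ± 0.05 in the plain contrast (adjusted p = 0.000323). MXD4 rose by 1.57 ± 0.10 (adjusted p = 7.04e-09) or by 1.88 ± 0.07 (adjusted p = 1.13e-08), MXD3 by 0.39 ± 0.10 (adjusted p = 0.00621) or by 0.61 ± 0.06 (adjusted p = 2.39e-05), and MXD1 by 0.86 ± 0.15 (adjusted p = 0.000242) or by 0.75 ± 0.12 (adjusted p = 0.000451). MNT passed narrowly after the subtraction (log2 fold change -0.34 ± 0.13, adjusted p = 0.0482) and failed without most single libraries, 10 of 12, with log2 fold changes from -0.44 to -0.24 over all 12. MXI1 was not called after the subtraction (log2 fold change -0.20 ± 0.09, adjusted p = 0.0714, edgeR) but was in the plain contrast (-0.19 ± 0.06, adjusted p = 0.0155). MGA had opposite signs, 0.21 ± 0.06 (adjusted p = 0.00651) and -0.20 ± 0.05 (adjusted p = 0.0071), so no direction holds for it.

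A further comparison, added after these levels were seen, set the difference between the dexamethasone groups of TLE1 KO and Nalm6 against that between their untreated cells. For Nalm6 the untreated cells were those of the first set. In this comparison 3 of 9 network genes differed, against 30.3% of all genes, 2 higher (13.7%) and 1 lower (16.6%). MXD4 stood at 305 to 327 CPM in dexamethasone-treated Nalm6 and at 114 to 125 CPM in TLE1 KO, and its value was lower by 1.49 on the log2 scale in this test (-1.49 ± 0.07, adjusted p = 7.01e-10, edgeR). MYC was higher by 0.46 ± 0.05 (adjusted p = 5.65e-06).

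The MYC to MXD balance was described as the ratio of MYC to the summed MXD1, MXD3, MXD4 and MXI1 levels, both in CPM per kilobase of exon. This is a ratio of transcripts and was given no test. Untreated Nalm6 libraries had 10.0, 9.46 and 9.31 times as much MYC as summed MXD transcript, and those of the second set 9.84, 11.1 and 10.4. Prednisolone took the ratio in Nalm6 to 2.92, 2.76 and 2.68, a 3.45-fold fall, and dexamethasone to 1.87, 1.91 and 1.89, a 5.51-fold fall. No glucocorticoid library of Nalm6 came near an untreated one. In TLE1 KO it fell from 8.41, 8.74 and 8.42 to 3.17, 3.17 and 3.33 with prednisolone, and stood at 4.06, 4.21 and 4.13 with dexamethasone. In CEM it fell from 5.09, 4.97 and 4.84 to 2.18, 2.24 and 2.17.

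CHIR moved the ratio far less, and not in the same direction in both lines. In Nalm6 it was 12.7, 12.3 and 10.2, above the 9.31 to 10.0 of the controls, since the MXD sum fell from 25.7 to 18.01 CPM per kilobase while MYC fell from 246 to 210. In CEM it was 4.38, 4.30 and 4.33, below the 4.84 to 5.09 of the controls. The log2 difference was 0.28 in Nalm6, beside a pooled SD of 0.13, and -0.19 in CEM, beside 0.03. With MNT and MGA added to the sum, the difference was 0.07 in Nalm6 and -0.35 in CEM.

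**Figure D3:**
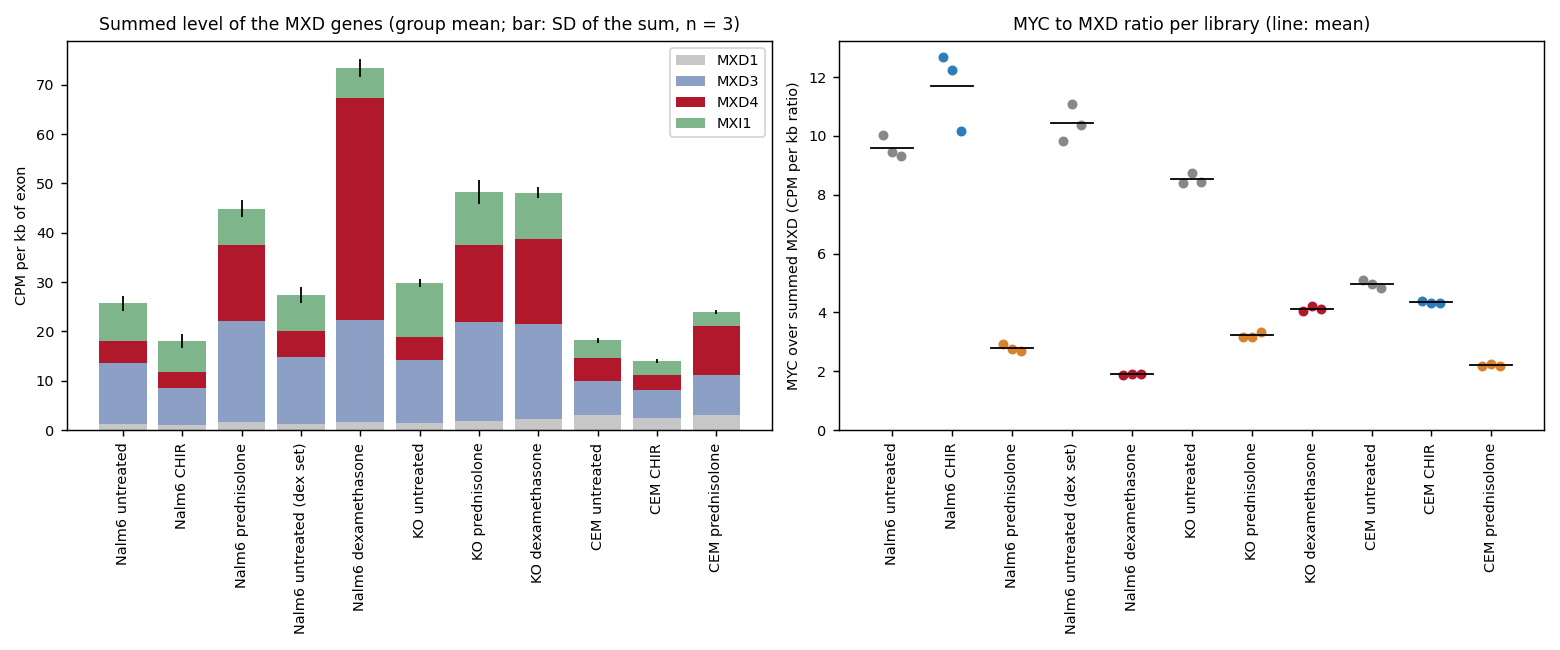
Left, mean summed level of MXD1, MXD3, MXD4 and MXI1 per group in CPM per kilobase of exon (stacked bars from 0; black bars, SD of the sum over 3 libraries); right, ratio of MYC to that sum in each library (linear axis from 0, lines are means). The ratio is between 1.87 and 4.21 in all glucocorticoid libraries and at least 4.30 in all others, and MXD4 makes up most of the extra MXD transcript.

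MXD4 accounted for much of the gain in repressor transcript. Its share of the summed MXD level rose from 17.4% to 34.3% with prednisolone in Nalm6 and from 19.3% to 61.2% with dexamethasone. In TLE1 KO it went from 15.8% to 32.1% with prednisolone and to 35.7% with dexamethasone, and in CEM from 25.3% to 41.5%. MXD3 was the largest component of the sum in all groups other than dexamethasone-treated Nalm6 and prednisolone-treated CEM, where MXD4 was. The summed level itself went from 27.4 to 73.4 CPM per kilobase with dexamethasone in Nalm6, from 25.7 to 44.9 with prednisolone in Nalm6, from 29.7 to 48.3 in TLE1 KO and from 18.2 to 23.9 in CEM.

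Textbook targets that MYC activates were lower under glucocorticoids in all 3 lines. The list holds 28 genes, among them genes of ribosome production, nucleotide and polyamine synthesis and metabolism. It also holds others, such as TERT and the cell cycle genes CDK4 and CCND2. Prednisolone lowered 26 of 27 tested in Nalm6 (median log2 fold change -0.63, beside 0.03 over all genes), 24 of 27 in TLE1 KO (median -0.53, beside -0.00) and 26 of 26 in CEM (median -0.46, beside 0.02). Dexamethasone lowered 25 of 27 in Nalm6 (median -0.72, beside 0.02). The genes called lower over all genes tested were 26.1%, 21.9%, 22.8% and 30.2% in these comparisons. Dexamethasone in TLE1 KO lowered 23 of 27 and raised 1 after the set subtraction (median -0.60; 21.5% of all genes lower and 18.5% higher). The plain contrast gave the same counts (median -0.66, beside 26.3% and 26%). In Nalm6 TERT, the telomerase subunit, fell by 1.09 ± 0.06 on the log2 scale with prednisolone (adjusted p = 5.7e-11, edgeR; 0.67 against the second untreated set), and LDHA, which makes lactate, by 0.98 ± 0.04 (adjusted p = 7.97e-12). ODC1, the first enzyme of polyamine synthesis, fell by 0.63 ± 0.03 in CEM (adjusted p = 1.65e-11), by 0.63 ± 0.04 with prednisolone in Nalm6 (adjusted p = 6.44e-10) and by 0.53 ± 0.07 in TLE1 KO (adjusted p = 0.000213).

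Under CHIR the same list moved slightly the other way, while MYC itself was lower. In Nalm6 9 of 27 were called higher, against 3.16% of all genes, with a median of 0.15 over the list beside -0.01 over all genes. That count was 2 without the second or the third control library and 23 without the third CHIR library, so it rests on single libraries. In CEM 10 of 26 were called higher, against 5.41%, with a median of 0.10, and the count was 6, 4 and 4 without the second control, the third control and the second CHIR library. NPM1, a nucleolar chaperone, rose by 0.26 ± 0.05 in Nalm6 (adjusted p = 0.0146, edgeR) and by 0.28 ± 0.03 in CEM (adjusted p = 0.000366). NME1, a nucleoside diphosphate kinase, rose by 0.32 ± 0.04 (adjusted p = 0.00236) and by 0.18 ± 0.04 (adjusted p = 0.0202).

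**Figure D4:**
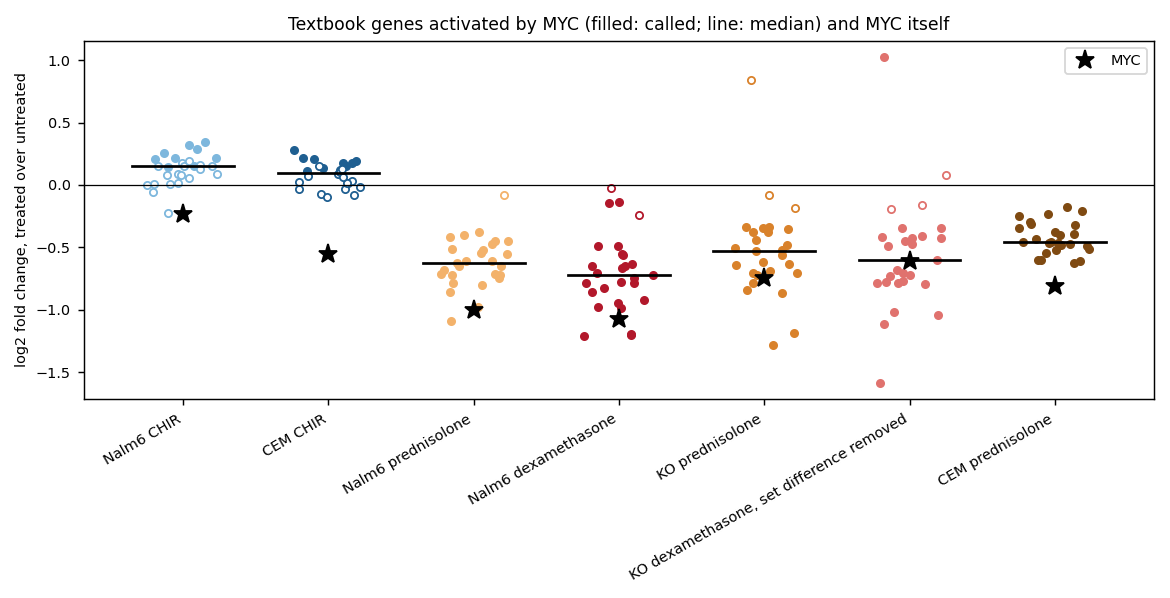
Log2 fold change (treated over untreated, vertical axis) of each tested gene of the list of textbook MYC-activated genes in the 7 treatment comparisons; filled points passed an adjusted p under 0.05, open points did not, lines are list medians and stars are MYC. The list medians lie at 0.15 and 0.10 under CHIR and between -0.72 and -0.46 under glucocorticoids, while MYC is below 0 in all 7. Dexamethasone in TLE1 KO is shown after subtracting the difference between the untreated Nalm6 sets.

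Genes that MYC is known to repress changed in both directions. With prednisolone in Nalm6 4 of 7 rose, beside 28.7% of all genes, and 3 fell, beside 26.1%. Dexamethasone in Nalm6 (30.2% each) and prednisolone in TLE1 KO (19.8% and 21.9%) gave the same counts. In CEM prednisolone raised 4 of 6, beside 22.3%, and lowered 1, beside 22.8%. The list medians were 0.45, 0.52, 0.50 and 0.22 in these comparisons, beside 0.03, 0.02, -0.00 and 0.02 over all genes. KLF6, a zinc-finger regulator, rose by 1.68 ± 0.04 on the log2 scale with prednisolone in Nalm6 (adjusted p = 1.6e-15, edgeR), and NDRG1 by 1.35 ± 0.07 (adjusted p = 2.39e-11). CDKN1A, the p21 cell cycle inhibitor, fell by 0.86 ± 0.04 in Nalm6 (adjusted p = 2.26e-11; 1.33 against the second untreated set) and by 1.16 ± 0.17 in CEM (adjusted p = 1.85e-05), although MYC was also lower there.

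Some proliferation genes were also lower under glucocorticoids. Of 10, prednisolone lowered 6 in Nalm6 and 4 were not called, beside 26.1% of all genes lower, and it lowered 8 in TLE1 KO, beside 21.9%. In CEM 6 were lower, beside 22.8%, 3 were not called and 1, TOP2A, rose. Dexamethasone in Nalm6 lowered 9, beside 30.2%. The medians were -0.32, -0.81, -0.15 and -0.69. The replication factor PCNA fell by 0.94 ± 0.05 with prednisolone in Nalm6 (adjusted p = 3.36e-11, edgeR) and by 0.22 ± 0.03 in CEM (adjusted p = 1.28e-05). For MKI67, present in all cycling cells, the log2 fold change was 0.03 ± 0.07 in Nalm6 (adjusted p = 0.769), or 0.46 against the second untreated set (adjusted p = 0.000105), and -0.84 ± 0.17 in TLE1 KO (adjusted p = 0.00232). The part of slower division in the MYC and MXD values was not tested. Under CHIR 3 of 10 were lower in Nalm6, beside 4.72% of all genes, 0 when any 1 of the 3 controls was left out and 7 without the third CHIR library. In CEM 2 of 10 were lower, beside 5.43%, 0 without the first or the third control or the second CHIR library and 1 without the first CHIR library.

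The proteins that network members work through were described by 4 lists, the coactivators of MYC, the SIN3 complex, the partners of MGA and the enzymes of MYC protein turnover. Under CHIR in Nalm6, 0 of 36 passed with edgeR and 0 with DESeq2, 4 had an unadjusted p under 0.05, and log2 fold changes ran from -0.20 to 0.13. Under CHIR in CEM 1 of 36 passed, PPP2R5A, a phosphatase subunit that acts on MYC protein (log2 fold change 0.21 ± 0.04, adjusted p = 0.00659, edgeR). Over all genes, 7.88% were called under CHIR in Nalm6 and 10.8% in CEM. With prednisolone, 9 of 36 rose and 18 fell in Nalm6, 5 of 35 rose and 16 fell in TLE1 KO, and 7 of 36 rose and 21 fell in CEM. With dexamethasone in Nalm6 11 rose and 20 fell. Over all genes, 28.7% rose and 26.1% fell with prednisolone in Nalm6, 19.8% and 21.9% in TLE1 KO and 22.3% and 22.8% in CEM, and 30.2% each with dexamethasone in Nalm6.

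Among coactivators, RUVBL1, a helicase of the TIP60 and INO80 complexes, fell in all 3 lines with prednisolone, by 0.56 ± 0.04 in Nalm6 (adjusted p = 5.43e-09, edgeR), 0.43 ± 0.07 in TLE1 KO (adjusted p = 0.000685) and 0.43 ± 0.03 in CEM (adjusted p = 5.02e-09). Within the SIN3 complex, through which MXD proteins repress, the scaffold SIN3B rose with prednisolone in Nalm6 by 0.43 ± 0.04 (adjusted p = 5.27e-08) and the deacetylase HDAC2 fell by 0.48 ± 0.03 (adjusted p = 2.43e-09). Among turnover factors, SKP2, a ubiquitin ligase subunit for MYC, fell by 0.89 ± 0.04 with prednisolone in Nalm6 (adjusted p = 1.7e-11), and GSK3B, the kinase that marks MYC for degradation and the target of CHIR, rose by 0.76 ± 0.04 (adjusted p = 1.88e-11; 1.22 against the second untreated set). GSK3B rose by 1.28 ± 0.04 with dexamethasone (adjusted p = 4e-12) and by 0.14 ± 0.04 in CEM (adjusted p = 0.0132), and its log2 fold change under CHIR was 0.02 in Nalm6 and -0.04 in CEM.

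MLXIP, which pairs with MLX and senses glucose, fell under CHIR by 0.25 ± 0.05 in Nalm6 (adjusted p = 0.00961, edgeR) and by 0.29 ± 0.06 in CEM (adjusted p = 0.0143). It was no longer called in Nalm6 without the second or the third control, or in CEM without the second control or the second CHIR library, where 0 genes of its list were called lower. It rose with prednisolone by 0.93 ± 0.04 in Nalm6 (adjusted p = 4.16e-12), 0.60 ± 0.12 in TLE1 KO (adjusted p = 0.00229) and 0.22 ± 0.05 in CEM (adjusted p = 0.000957). TXNIP, a known target of MLX complexes and also of glucocorticoids, rose by 3.04 ± 0.05, 2.02 ± 0.07 and 1.68 ± 0.03 (adjusted p = 6.5e-18, 2.4e-08 and 1.07e-16). ARRDC4, the other target on the list, fell by 0.65 ± 0.07 in Nalm6 (adjusted p = 1.02e-06; 0.37 against the second untreated set) and by 0.66 ± 0.11 in TLE1 KO (adjusted p = 0.000957), so the targets did not move together.

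The genes whose group means were most like those of MYC over the 11 groups, among 9573 well expressed genes, were CABLES1, IMPDH1 and DDX54, with Pearson correlations of 0.99, 0.98 and 0.98. The most opposite were YES1, ATF6 and FNDC3A, each at -0.98. For MXD4, the most like were RGP1, ZSWIM8 and TSPYL2, at 0.98, 0.98 and 0.98, and the most opposite NUDCD1, RUVBL1 and PEX5, each at -0.98. These are descriptions over 11 points that share cell lines and control sets. RUVBL1 is also on the coactivator list above.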

How the data were processed

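The authors deposited read counts per gene for each library in the layout of the aligner STAR; the submitters' processing notes name Bowtie2, DESeq2 and the build hg19, with no roles. Column 4 (reads on one strand) was used because it held 12.3 to 15.3 times the gene total of column 3. Reads assigned to no gene, 38.8% to 50.6% of a library when counted without strand, stayed out of library sizes. Symbols came from the supplied name table, which matched 40678 of 62446 gene IDs, and exon lengths from GENCODE v29 on GRCh38, so no gene coordinates are given. Groups were taken from the titles. The untreated Nalm6 group for prednisolone was chosen by the naming style of the deposited tables, since the labels do not give it.

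The members and gene lists were chosen with earlier results of these data known. CPM are counts scaled to a total of 1000000. A gene at 0 has an upper limit of 3 counts, 0.0484 to 0.119 CPM, which covers counting error only. Comparisons were fitted over all genes with edgeR 4.0.16 (R 4.3.3; filterByExpr, TMM, quasi-likelihood F test, p adjusted by Benjamini-Hochberg; a gene is called where that p is under 0.05), tested on simulated data first; SE is the fold change divided by the root of F. Genes outside the network were named as the largest called changes of a list, or chosen after their values were seen to show a range of roles. Replicate pairs differed by more than sampling noise and none were merged. The widest pairs were those with the third CHIR library of Nalm6. Their chi-square per degree of freedom was 42.1 and 43.7, beside 5.77 between the first and second CHIR libraries. Same-numbered libraries deviated together (correlations of 0.108, 0.197 and 0.207) for prednisolone in Nalm6. Alternatives were DESeq2 1.42.0, RLE size factors, all genes unfiltered, a minimum of 10 counts per library, column 2 without strand, the replicate block, 1 fit over all 33 libraries, the second untreated Nalm6 set for prednisolone (added after seeing the data) and each library left out.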

Additional observations from a re-analysis of the deposited data

Results flagged for a closer look

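The prednisolone response differed between CEM and Nalm6, by a test of the difference itself (edgeR, adjusted p over all genes), in 6 network genes; doses differed (10 µM and 5 µM). The differences, CEM minus Nalm6 on the log2 scale, were 0.21 for MYC (adjusted p = 0.00416), 0.21 for MAX (0.0019), -0.32 for MXD1 (0.0106), -0.48 for MXD3 (5.31e-05), -0.67 for MXD4 (2.12e-08) and -0.31 for MXI1 (0.013). MXD1 passed narrowly and failed without the third Nalm6 control (adjusted p = 0.0501), as MXI1 did without the second CEM prednisolone library (0.0639). Against the second untreated Nalm6 set all 6 were called with the same sign, at 0.50 for MYC, 0.41 for MAX, -0.41 for MXD1, -0.25 for MXD3, -0.35 for MXD4 and -0.28 for MXI1.

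A dexamethasone comparison of TLE1 KO and Nalm6, added after member levels were seen, called 3 of 9 network genes, against 30.3% of all genes. It takes the difference between the dexamethasone groups of both lines and subtracts that between their untreated cells of the first set. The values, TLE1 KO minus Nalm6, were 0.46 ± 0.05 for MYC (adjusted p = 5.65e-06, edgeR), -1.49 ± 0.07 for MXD4 (7.01e-10) and 0.41 ± 0.05 for MGA (2.45e-05). With the first untreated Nalm6 set as baseline, MXD4 was thus 2.80-fold less raised in the libraries labelled TLE1 KO. MXD4 rose by 3.05 on the log2 scale in Nalm6 against its own set and by 1.88 in TLE1 KO in the plain contrast. That gap is narrower and was not tested, so the size of the difference depends on the untreated set used. For MGA the value depends on the untreated Nalm6 set used, since these sets differed by -0.41. MGA changed by -0.21 with dexamethasone in Nalm6 against its own set and by -0.20 in TLE1 KO in the plain contrast. No difference in response therefore holds for MGA. Whether the dexamethasone libraries of both lines were made together is not said in the labels, and the part of a set difference was not tested.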

How the results depend on the processing

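The falls of MYC and the rises of MXD4 and MXD3 under prednisolone and dexamethasone, and the falls of MXD4 and MXD3 under CHIR in Nalm6 and of MXD4 and MYC under CHIR in CEM, passed in every alternative run. MYC under CHIR in Nalm6 was -0.23 with the replicate block (adjusted p = 0.0573, edgeR) and -0.27 to -0.18 with a library left out; 2 to 5 network genes were called there with a library left out. For TLE1 KO against Nalm6 the count was 1 with the block and 1 to 2 with a library left out. For the prednisolone response of TLE1 KO minus Nalm6 it was 1 with DESeq2, with at least 10 counts and in the fit over 33 libraries, where MYC was 0.28 (adjusted p = 0.00428), 0.28 (0.039) and 0.29 (0.0037), and 0 to 1 with a library left out (MYC 0.24 to 0.32). Reversed values were MXD4 in CEM against the first Nalm6 set, 0.10, and MGA with dexamethasone in TLE1 KO in the plain contrast, -0.20. With MNT and MGA in the sum, the log2 ratio difference was 0.0653 for CHIR in Nalm6, -0.35 for CHIR in CEM, -1.49, -1.20 and -0.99 for prednisolone in Nalm6, TLE1 KO and CEM, and -2.11 and -1.08 for dexamethasone in Nalm6 and TLE1 KO. Without length correction the last 5 were -1.88, -1.50, -1.25, -2.68 and -1.27. The cause of these changes was not tested, except that the sum and its weights define the ratio. With the second untreated Nalm6 set, chosen after seeing the data, 8 network genes were called for prednisolone in Nalm6 and 3 for the response of TLE1 KO minus Nalm6, with MYC at 0.58 (adjusted p = 0.000235), and the log2 ratio difference was -1.90. MGA then reversed to 0.29 in Nalm6, -0.30 for TLE1 KO minus Nalm6 and -0.31 for CEM minus Nalm6. Same-numbered libraries deviated together for prednisolone in Nalm6, for the untreated Nalm6 sets and between prednisolone-treated TLE1 KO and Nalm6 (0.195, 0.158 and 0.139). In every other pair of groups compared, at least 1 of the 3 correlations was under 0.1.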

Other observations

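TFDP1, the dimer partner of E2F factors and a subunit of the MGA complex, was nearly absent from TLE1 KO. The 9 TLE1 KO libraries held 1 to 3 reads each, whereas untreated Nalm6 libraries held 23.8, 23.3 and 22.4 CPM (1144 to 1474 reads) and untreated CEM libraries 201, 200 and 203 CPM. In Nalm6 TFDP1 fell by 1.00 ± 0.06 on the log2 scale with prednisolone (adjusted p = 3.13e-10, edgeR) and by 1.18 ± 0.06 with dexamethasone (adjusted p = 3.19e-10). TFDP1 was singled out after its values were seen. E2F6, the E2F factor of the same complex, differed by -0.09 on the log2 scale between untreated TLE1 KO and Nalm6 (not called).

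PVT1, the long noncoding RNA gene beside MYC, was at 72.8, 83.5 and 73.2 CPM in untreated Nalm6 and at 4.18, 4.47 and 4.08 CPM in untreated CEM. It fell with prednisolone by 0.39 ± 0.13 in TLE1 KO (adjusted p = 0.0392, edgeR) and 0.41 ± 0.13 in CEM (adjusted p = 0.0123). In Nalm6 the log2 fold change of PVT1 was -0.43 ± 0.09 with prednisolone (adjusted p = 0.000476, edgeR), but 0.34 ± 0.09 against the second untreated set (adjusted p = 0.00308). No direction therefore holds for prednisolone in Nalm6. With dexamethasone in Nalm6, against its own untreated set, PVT1 was called lower at -0.50. Its log2 fold change under CHIR was -0.04 in Nalm6 and 0.02 in CEM, where MYC fell by 0.55. MYCNOS, which overlaps MYCN on the opposite strand, was at 0.37, 0.42 and 0.53 CPM in untreated CEM.

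MYCL, the other MYC relative, fell with prednisolone by 0.45 ± 0.14 in Nalm6 (adjusted p = 0.0101, edgeR; 0.90 against the second untreated set) and by 0.75 ± 0.13 in TLE1 KO (adjusted p = 0.00122) and rose by 0.60 ± 0.19 in CEM (adjusted p = 0.0185). The difference of responses, CEM minus Nalm6, was 1.06 ± 0.24 (adjusted p = 0.00176). Between the untreated Nalm6 sets 5 of 9 network genes differed, a share near the 50.2% of all genes. Of these, 4 were higher in the second set, beside 25.8% of all genes, and 1 lower, beside 24.4%. MYC was higher by 0.28 ± 0.05, MXD4 by 0.31 ± 0.06, MXD3 by 0.21 ± 0.06 and MAX by 0.19 ± 0.04. MGA was lower at -0.41 ± 0.04.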
